A study of Mus musculus with 8 samples.

Results

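Potassium channel subunit genes were compared between hearts with a CITED4 knockout and floxed control hearts under pressure load. The genes were all those on the array whose platform symbol starts with Kcn and a further letter, without Kcnrg and Kcnq1ot1, on probe sets that carry exactly 1 symbol. Each gene was read from 1 probe set, the one whose mean signal over the 8 arrays was highest. This gave 88 of 22180 genes. One of them, Kcnd3os, is an antisense RNA that fits the symbol rule but encodes no subunit. The mean signal of 66 of the 88 reached 3.80 (log2), the 40th percentile of all probe sets, and these were tested among 15086 genes. The other 22 had means between 2.02 and 3.79.

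The knockout group (C4KO_TAC) held 4 hearts and the control group (F/FCtr_TAC) held 4 hearts, all from male C57Bl6N mice harvested 1 week after transverse aortic constriction (TAC), an operation that narrows the aorta and loads the left ventricle. Every heart had been operated on, so no value here compares a loaded with an unloaded heart. The control animals carried the floxed allele. The Cre driver, its presence in the controls and the animals' ages are not stated in the labels, and a Cre effect cannot be told apart from the knockout. Array medians lay between 4.29 and 4.33. Cited4, a co-regulator that links TFAP2 transcription factors to CBP/p300, had signals from 4.83 to 5.26 in knockout hearts, against 5.76 to 6.22 in control hearts. Its difference was -0.91 ± 0.12 (log2, SE), with an adjusted p of 0.277 in limma. The labels state no litters or array runs, and the p-values therefore cover only the spread among these 8 hearts. The tissue label reads heart. All 16 ventricular cardiomyocyte markers lay above the filter, which cannot tell ventricular from whole-heart tissue. Tnni3, cardiac troponin I, had signals of 11.53 to 12.06 in knockout hearts and 11.83 to 12.06 in control hearts. One library stood apart. In knockout replicate 2 the atrial genes Sln and Myl7 had signals of 9.31 and 9.02, while Sln ran from 2.75 to 4.98 and Myl7 from 4.03 to 5.04 in the other 7 hearts.

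Potassium channels repolarise the cardiomyocyte and hold its resting potential. In the adult mouse ventricle a fast transient outward current starts repolarisation, slowly inactivating delayed rectifiers continue it, and strong inward rectifiers set the resting potential. Pressure load and heart failure are known for lower transcript levels of several of these channels. Pore subunits form the channel, and auxiliary subunits such as the KChIP, Kv beta, KCNE and BK beta proteins change its gating or its number at the membrane. All signals below are log2 intensities, and differences are knockout minus control on that scale. Probe sets differ in their response, so the signals do not rank the genes by transcript level. RNA came from heart tissue with all its cell types, and fewer cells of a type cannot be told apart from less RNA per cell.

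The family as a whole was not shifted between the genotypes. Differences of -0.4 or lower were more frequent among its members than among all genes. Of the 66 tested genes 32 were lower in the knockout and 34 were higher, and 48.8% of all tested genes were lower. The median difference was 0.0021, against 0.0038 over all tested genes. No member passed limma's test at an adjusted p of 0.05 (0 of 66), and the same test called 0% of all genes. At an unadjusted p under 0.05 in limma 7 members were lower, 10.6% of those tested, beside 5.61% of all genes. These were Kcnd2, Kcnip2, Kcna4, Kcnj2, Kcnj3, Kcnj8 and Kcnn2. In the same test 2 members were higher, 3.03% of those tested, beside 5.64% of all genes, namely Kcnk1 and Kcnk5. A difference of -0.4 or lower was seen in 6 members, 9.09%, beside 1.34% of all genes. A difference of 0.4 or higher was seen in 1 member, 1.52%, beside 2.35% of all genes. Because the genes were chosen with earlier results of these data known, these counts are descriptions and no test was made over the family.

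**Figure D1:**
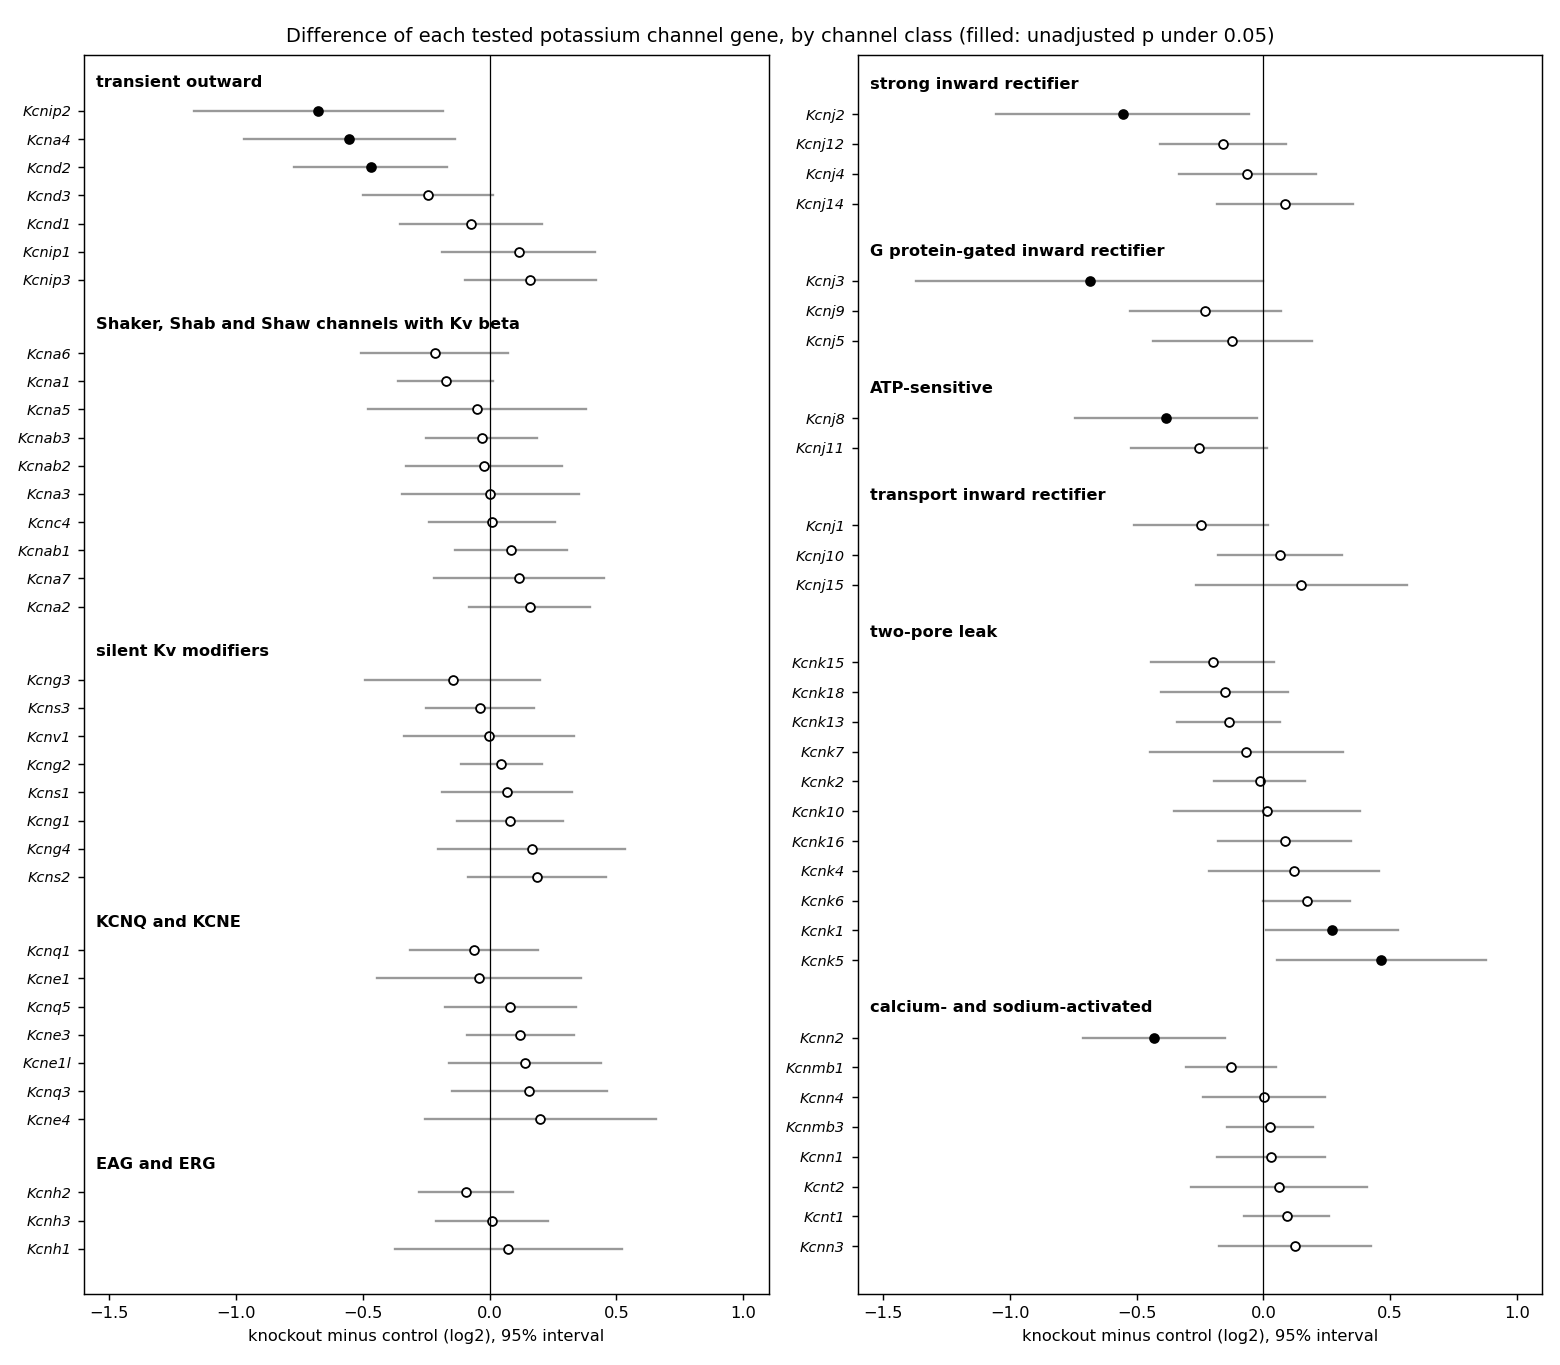
Difference between knockout and control hearts (log2, horizontal axis) for each of the 66 tested genes, grouped by channel class, with limma's 95% interval as a line. Filled points have an unadjusted p under 0.05. The 7 filled points left of 0 lie among the transient outward, inward rectifier, ATP-sensitive and calcium-activated genes, and the 2 filled points right of 0 are the leak channel genes Kcnk1 and Kcnk5.

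Members with a clear signal were mostly lower. Of the 16 members with a mean signal of 5.5 or over, 13 were lower in the knockout, with a median difference of -0.14. Among all 8902 tested genes in that signal range 52.6% were lower, with a median of -0.0097. In the range from 4.5 to 5.5, 9 of 25 members were lower (median 0.03), and under 4.5 it was 10 of 25 (median 0.03). Pore subunits were lower in 24 of 46 cases (median -0.03), auxiliary subunits in 5 of 12 (median 0.05) and the silent voltage-gated modifiers in 3 of 8 (median 0.06). The limits of 4.5 and 5.5 were set after the values had been seen. Of 22 genes best known from cardiac currents 20 were members and 19 were tested, 17 of them lower (median -0.16). The 16 ventricular cardiomyocyte markers had the same median (-0.16, 13 of 16 lower). At an unadjusted p under 0.05 in limma 6 of the 16 were lower, beside 5.61% of all genes.

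**Figure D2:**
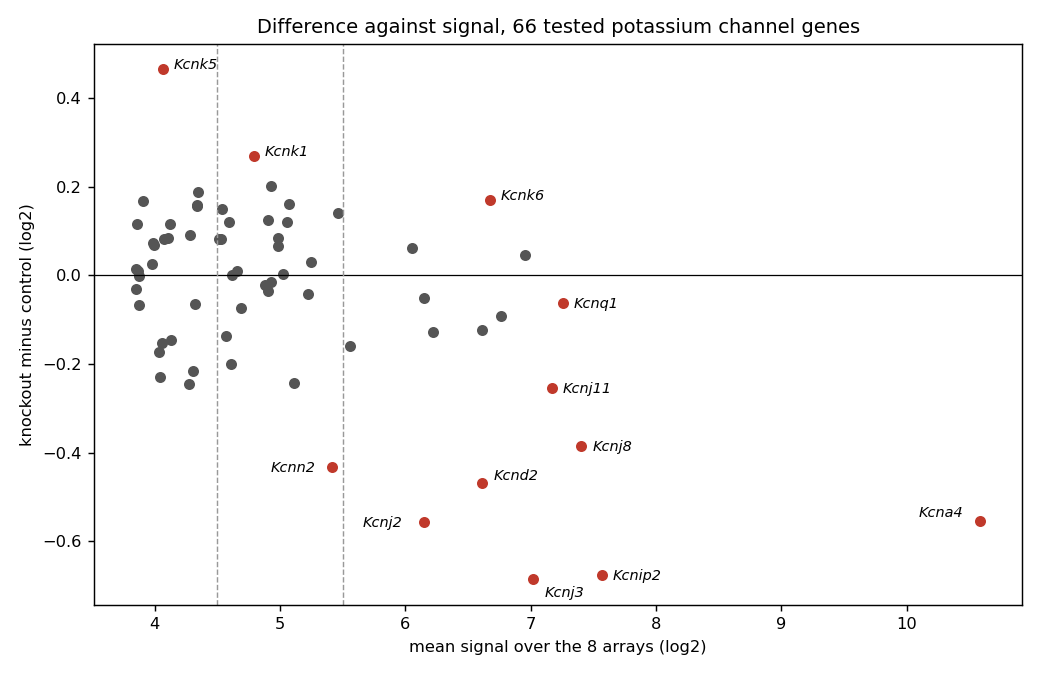
Difference between knockout and control hearts (log2, vertical axis) against the mean signal over the 8 arrays (log2, horizontal axis), 1 point per tested gene. Dashed lines mark signals of 4.5 and 5.5, and genes named on the plot are in red. Points right of 5.5 lie mostly under 0 (13 of 16), while points left of it scatter around 0.

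Transient outward channel genes were mostly lower in the knockout hearts. Of 8 members 7 were tested, 5 of them lower and 2 higher, with a median of -0.24 and a range from -0.67 to 0.16. The median was -0.12 with the mean of each gene's probe sets, -0.14 without knockout replicate 4 and -0.47 with the filter at the 60th percentile. Kcnd2, which encodes the main pore subunit of the fast transient outward current in mouse ventricle, had signals of 6.53, 6.28, 6.36 and 6.35 in knockout replicates 1 to 4, against 6.90, 6.60, 6.66 and 7.24 in control replicates 1 to 4. Every knockout heart lay below every control heart. The difference was -0.47 ± 0.13 (SE, 95% interval -0.77 to -0.17), 72.2% of the control signal, with an adjusted p of 0.421 in limma and an exact two-sided permutation p of 0.0286, the smallest that 4 against 4 allows. Kcnd2 was the 1 tested member whose groups did not overlap on the low side, beside 2.9% of all genes. The difference without knockout replicates 1 and 4, a choice made after the data had been seen, was -0.53.

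Kcnip2 encodes the calcium-binding KChIP subunit that brings these pore subunits to the membrane and is needed for the fast transient outward current in mouse. Its signals were 6.65, 7.65, 7.66 and 6.97 in knockout replicates 1 to 4, against 7.62, 7.96, 7.95 and 8.10 in control replicates 1 to 4. Knockout replicates 1 and 4 were low, and knockout replicates 2 and 3 lay just above control replicate 1. The difference was -0.67 ± 0.22 (SE), 62.6% of control, with an adjusted p of 0.421 in limma and an exact permutation p of 0.0857. It was -0.48 without knockout replicate 1 and -0.25 without knockout replicates 1 and 4.

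Kcna4, the pore subunit of the slow transient outward current, followed the pattern of Kcnip2. It had signals of 9.84, 10.70, 10.66 and 10.04 in knockout hearts, against 10.67, 10.89, 10.90 and 11.00 in control hearts. Knockout replicate 2 lay just above control replicate 1, and the other 3 knockout hearts below all controls. The difference was -0.55 ± 0.19 (SE), with an adjusted p of 0.421 in limma, and it was -0.18 without knockout replicates 1 and 4. A second probe set of Kcna4, with a mean of 4.99, went the other way, by 0.31. Its signals were 5.25, 4.97, 5.12 and 5.25 in knockout hearts, against 4.69, 5.09, 4.82 and 4.76 in control hearts. The mean of both probe sets differed by -0.12, so the direction of Kcna4 depends on which probe set is read.

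Kcnd3, the other cardiac pore subunit of the fast current, averaged 4.99 ± 0.22 in knockout hearts and 5.23 ± 0.11 in control hearts (SD, n = 4 each). Its difference was -0.24 ± 0.12 (SE), with an adjusted p of 0.459 in limma, and it was -0.14 without knockout replicate 4. Kcnd1 differed by -0.07 ± 0.13, Kcnip1 by 0.12 ± 0.14 and Kcnip3 by 0.16 ± 0.12, all within the overlap of the groups.

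The upstream sequences of Kcnd2, Kcnip2, Kcna4, Kcnj2 and Kcnj3 are shown because these genes had the largest differences below control among members with a clear signal. They are the 250 bases before the annotated start in RefSeq (build GRCm38.p6), written along the gene's strand, at chr6:21215096-21215345, plus strand, chr19:45816064-45816313, minus strand, chr2:107290339-107290588, plus strand, chr11:111065914-111066163, plus strand, and chr2:55435720-55435969, plus strand. Capitals mark CACCC or its reverse complement GGGTG, a core shared by binding sites of Kruppel-like factors.
Kcnd2 promoter: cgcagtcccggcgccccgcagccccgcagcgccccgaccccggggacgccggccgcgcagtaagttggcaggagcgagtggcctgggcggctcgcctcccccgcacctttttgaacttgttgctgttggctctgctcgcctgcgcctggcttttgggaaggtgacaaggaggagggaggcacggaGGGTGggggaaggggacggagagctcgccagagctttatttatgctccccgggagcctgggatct
Kcnip2 promoter: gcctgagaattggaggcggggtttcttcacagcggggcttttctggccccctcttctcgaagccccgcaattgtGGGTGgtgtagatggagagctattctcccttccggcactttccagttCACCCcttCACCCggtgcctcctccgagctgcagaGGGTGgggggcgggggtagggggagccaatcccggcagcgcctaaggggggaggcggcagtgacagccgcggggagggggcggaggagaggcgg
Kcna4 promoter: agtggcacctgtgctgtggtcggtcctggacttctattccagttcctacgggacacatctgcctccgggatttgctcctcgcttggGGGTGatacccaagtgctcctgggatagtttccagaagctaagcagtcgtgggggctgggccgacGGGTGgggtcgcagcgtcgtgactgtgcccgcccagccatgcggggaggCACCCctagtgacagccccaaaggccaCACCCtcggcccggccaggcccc
Kcnj2 promoter: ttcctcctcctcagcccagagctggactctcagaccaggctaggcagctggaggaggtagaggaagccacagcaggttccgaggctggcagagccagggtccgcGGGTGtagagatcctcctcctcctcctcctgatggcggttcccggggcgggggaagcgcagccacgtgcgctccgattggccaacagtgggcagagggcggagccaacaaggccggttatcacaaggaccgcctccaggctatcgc
Kcnj3 promoter: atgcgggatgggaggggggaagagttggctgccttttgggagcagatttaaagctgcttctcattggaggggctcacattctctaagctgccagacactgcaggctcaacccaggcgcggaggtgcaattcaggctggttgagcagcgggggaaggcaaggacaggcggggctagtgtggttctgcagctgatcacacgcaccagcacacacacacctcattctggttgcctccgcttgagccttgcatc
The Kcnip2 and Kcna4 windows held 4 such matches each, those of Kcnd2 and Kcnj2 held 1 each, and that of Kcnj3 held 0. Of 93 windows of 68 members 74.2% held a match on either strand, beside 52% of all 32851 windows of the same length. GGGCGG or its reverse complement, the GC box, was found in 45.2% of the members' windows and 32.7% of all windows. TATAAA or its reverse complement, the TATA box, was in 2.15% of the members' windows and 12.4% of all windows. The windows were not matched for base composition. GCCNNNGGC, a consensus of the TFAP2 factors that CITED4 binds, was in 17.2% of the members' windows, in 8.33% (1 of 12) of those of tested members with a signal of 5.5 or over and in 13.7% of all windows. The 5 windows above held 0 matches each. In the 12 windows of tested members with a signal of 5.5 or over, CACCC was in 91.7%, the GC box in 50% and the TATA box in 0%. Windows of 1 gene can overlap, and a match describes letters in the window and no binding. Klf15, a Kruppel-like factor known in mouse to activate Kcnip2, had signals of 5.36, 5.96, 5.95 and 5.08 in knockout hearts, against 5.73, 5.77, 5.81 and 6.06 in control hearts. Its 2 lowest values were those of knockout replicates 1 and 4, the hearts with the lowest Kcnip2 and also the lowest mean of the ventricular markers. A link between Klf15 and Kcnip2 in these hearts was not tested. The difference of Klf15 was -0.25 ± 0.19 (SE), with an adjusted p of 0.619 in limma; the gene was singled out after its values had been seen.

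Of 4 tested strong inward rectifier genes, whose channels hold the resting potential, 3 were lower and 1 was higher (median -0.11). The largest difference was that of Kcnj2. Kcnj2, the main pore subunit of the strong inward rectifier current in ventricle, had signals of 5.48, 6.56, 6.07 and 5.37 in knockout hearts, against 6.36, 6.43, 6.55 and 6.36 in control hearts. Knockout replicates 1 and 4 were well below the controls, whereas knockout replicate 2 was level with the highest control. The difference was -0.56 ± 0.22 (SE), with an adjusted p of 0.426 in limma and an exact permutation p of 0.143, and it was -0.11 without knockout replicates 1 and 4. The SD was 0.55 in knockout hearts and 0.09 in control hearts. Its partner subunit Kcnj12 differed by -0.16 ± 0.11, Kcnj4 by -0.06 ± 0.12 and Kcnj14 by 0.08 ± 0.12, each with overlap.

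Subunits of the acetylcholine-activated channel, which slows the atria and nodes under vagal tone, varied widely between knockout hearts. Kcnj3 had signals of 6.02, 7.57, 7.00 and 6.13 in knockout hearts, against 7.02, 7.37, 7.57 and 7.50 in control hearts. Knockout replicates 1 and 4 were low and knockout replicate 2 was level with the highest controls. The difference was -0.69 ± 0.31 (SE), the largest of all 66 members in size, with an adjusted p of 0.444 in limma and an exact permutation p of 0.2. It was -0.98 without knockout replicate 2, the heart with high atrial markers, and -0.08 without knockout replicates 1 and 4. A second, dim probe set of Kcnj3 (mean 3.56) differed by 0.03. Kcnj5, the partner of Kcnj3, had signals of 6.42, 7.01, 6.41 and 6.35 in knockout hearts, against 6.58, 6.81, 6.63 and 6.66 in control hearts. Its difference was -0.12 ± 0.14, and -0.28 without knockout replicate 2, where all 3 remaining knockout hearts lay below the controls. Knockout replicate 2 was the highest heart for both Kcnj3 and Kcnj5, so larger differences without it follow from leaving it out. Kcnj9 differed by -0.23 ± 0.13.

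Both pore subunits of the ATP-sensitive channel, which opens when cellular ATP falls, were lower on average. Kcnj8, best known from vascular smooth muscle and pericytes, had signals of 6.75, 7.62, 7.38 and 7.10 in knockout hearts, against 7.48, 7.58, 7.63 and 7.70 in control hearts. Only knockout replicate 2 reached the range of the controls. The difference was -0.38 ± 0.16 (SE), with an adjusted p of 0.436 in limma, and it was -0.23 without knockout replicate 1. Kcnj11, the pore subunit of ventricular cardiomyocytes, had signals of 6.91, 7.33, 7.15 and 6.78 in knockout hearts, against 7.20, 7.41, 7.35 and 7.21 in control hearts, a difference of -0.25 ± 0.12 (adjusted p of 0.46 in limma) that was -0.17 without knockout replicate 4. Among their sulfonylurea receptor partners, Abcc9 had signals of 10.14, 10.84, 10.95 and 10.62 in knockout hearts, against 10.86, 11.04, 11.00 and 11.04 in control hearts. Abcc9 thus shared its 2 lowest hearts with Kcnj8 and Kcnj11, and its difference was -0.34 ± 0.16 (adjusted p of 0.447 in limma). Abcc8 differed by -0.22 ± 0.12. The median of Kcnj8 and Kcnj11, -0.32, was -0.08 without knockout replicates 1 and 4. Of 13 markers of smooth muscle cells and pericytes 8 were higher (median 0.09), among them Cspg4 by 0.31 and Pdgfrb by 0.23, while Vtn differed by -0.24, Higd1b by -0.15 and Rgs5 by -0.13. These 5 pericyte markers were chosen after their values had been seen, and the part of these cells in the Kcnj8 and Abcc9 values was not tested.

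**Figure D3:**
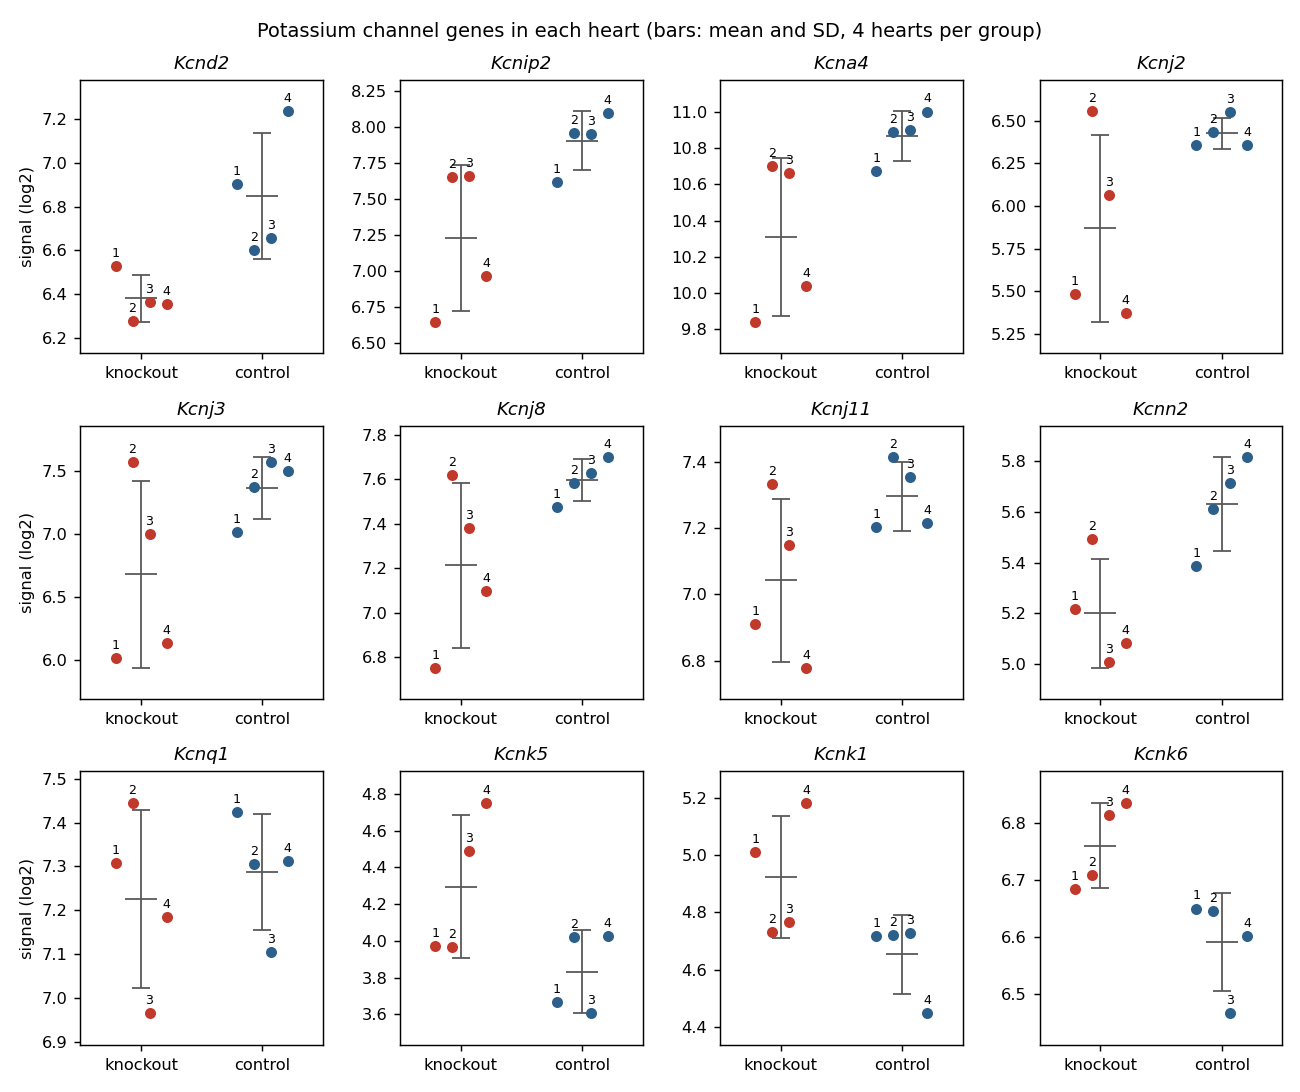
Signal (log2, vertical axes, which differ between panels and do not start at 0) of 12 genes in each knockout heart (red, left) and control heart (blue, right), with the replicate number above each point and bars for the mean and SD. Knockout replicates 1 and 4 are the lowest hearts for Kcnip2, Kcna4, Kcnj2, Kcnj3, Kcnj8 and Kcnj11. In Kcnd2 all 4 knockout hearts lie below the controls, and in Kcnk1 and Kcnk6 all 4 lie above them.

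Delayed rectifier genes showed no direction as a class. Of 10 tested genes of the Shaker, Shab and Shaw classes with their Kv beta subunits, 5 were lower and 5 higher (median -0.0091). Kcna5, a pore subunit of the slowly inactivating current of mouse ventricle, had signals of 5.82, 6.33, 6.42 and 5.93 in knockout hearts, against 5.85, 5.93, 6.26 and 6.67 in control hearts. Both groups spanned nearly the same range. The difference was -0.05 ± 0.19, with a 95% interval from -0.48 to 0.38. Kcnab1, a Kv beta subunit, differed by 0.08 ± 0.10, with an interval from -0.14 to 0.31. Kcna2 averaged 4.41 ± 0.06 in knockout hearts and 4.26 ± 0.22 in control hearts, and Kcna6 4.20 ± 0.23 in knockout hearts and 4.41 ± 0.18 in control hearts (SD, n = 4 each). The Kcna6 probe sets disagreed in direction: the second one, with a mean of 3.92, differed by 0.07.

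The genes of the classical slow and rapid delayed rectifiers, which carry little current in adult mouse ventricle and cause long QT syndrome when mutated in human, differed little. Kcnq1 had signals of 7.31, 7.45, 6.96 and 7.19 in knockout hearts, against 7.42, 7.31, 7.11 and 7.31 in control hearts. Its difference was -0.06 ± 0.11 (SE), and the 95% interval from -0.31 to 0.19 leaves out a change as large as that measured for Kcnd2. Kcne1, its auxiliary subunit, differed by -0.04 ± 0.18 (interval -0.44 to 0.36), and Kcnh2, the pore of the rapid current, by -0.09 ± 0.08 (interval -0.28 to 0.09). In all, 5 of 7 tested KCNQ and KCNE genes were higher (median 0.12), and the median was 0.01 without knockout replicates 1 and 4. Kcne4, which can inhibit Kv channels, had the widest interval of them, from -0.26 to 0.66. Of 8 ether-a-go-go genes only Kcnh1, Kcnh2 and Kcnh3 lay above the filter. Among silent modifiers 5 of 8 were higher (median 0.06), with Kcns2 at 4.44 ± 0.19 in knockout hearts and 4.25 ± 0.20 in control hearts (SD).

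Tandem-pore leak channels, which carry background current, contributed the members that were highest relative to control. The class held 6 higher and 5 lower genes among 11 tested (median 0.01). Kcnk5, an alkaline-activated leak channel, had signals of 3.97, 3.97, 4.49 and 4.75 in knockout hearts, against 3.67, 4.02, 3.61 and 4.03 in control hearts. Knockout replicates 3 and 4 lay above all controls, at signals near the filter. The difference was 0.46 ± 0.19 (SE), with an adjusted p of 0.424 in limma. Kcnk1 had signals of 5.01, 4.73, 4.77 and 5.18 in knockout hearts, against 4.72, 4.72, 4.73 and 4.45 in control hearts. The groups did not overlap, but knockout replicate 2 lay within 0.01 of control replicate 3. The difference was 0.27 ± 0.12, with an adjusted p of 0.441 in limma and an exact permutation p of 0.0286, and it was 0.10 without knockout replicates 1 and 4.

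Kcnk6, a leak channel found on lysosomal membranes, had signals of 6.68, 6.71, 6.81 and 6.83 in knockout hearts, against 6.65, 6.65, 6.47 and 6.60 in control hearts. Every knockout heart was above every control heart. The difference of 0.17 ± 0.08 was small but was also 0.17 without knockout replicates 1 and 4 (adjusted p of 0.448 in limma with all hearts). Kcnk1 and Kcnk6 were the 2 tested members without overlap on the high side, 3.03%, beside 2.33% of all genes. Kcnk2, the stretch-activated leak channel, differed by -0.02 ± 0.08, with an interval from -0.20 to 0.17.

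Among calcium- and sodium-activated channels Kcnn2 was lower, and the 7 other tested genes differed by -0.13 to 0.13. Kcnn2, a small-conductance calcium-activated channel of cardiomyocytes that is best known from the atria, had signals of 5.22, 5.49, 5.01 and 5.08 in knockout hearts, against 5.39, 5.61, 5.72 and 5.82 in control hearts. Knockout replicate 2 reached above control replicate 1, and the other 3 knockout hearts lay below all controls. The difference was -0.43 ± 0.13 (SE), 74.1% of control, with an adjusted p of 0.421 in limma and an exact permutation p of 0.0571. It was -0.38 without knockout replicates 1 and 4 and -0.53 without knockout replicate 2, the highest knockout heart of this gene. Kcnmb1, the BK channel's beta subunit in smooth muscle, had signals of 5.99, 6.23, 6.23 and 6.19 in knockout hearts, against 6.29, 6.35, 6.22 and 6.30 in control hearts, a difference of -0.13 ± 0.08 that was -0.07 without knockout replicate 1. The pore gene Kcnma1 lay below the filter. It had signals of 3.97, 3.70, 3.41 and 4.42 in knockout hearts, against 3.81, 3.33, 3.47 and 3.31 in control hearts, and its second probe set differed by 0.0016. Kcnn4, known from immune cells and fibroblasts, averaged 4.62 ± 0.21 in knockout hearts and 4.62 ± 0.09 in control hearts (SD), with an interval of the difference from -0.24 to 0.24.

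Members with a clear signal shared part of their pattern over the hearts. For each heart, the median deviation of the 16 members with a signal of 5.5 or over from their means over all hearts was -0.22, 0.17, -0.02 and -0.24 in knockout replicates 1 to 4, against 0.05, 0.14, 0.08 and 0.09 in control replicates 1 to 4. The medians of the other 50 tested members ran from -0.05 to 0.06 in knockout hearts and from -0.06 to 0.05 in control hearts. Knockout replicate 1 was the lowest of the 8 hearts in 8 of the 16 genes. Knockout replicate 2 was the highest in 5 of them, as was control replicate 4. The SD was larger in knockout than in control hearts for 13 of the 16 genes, 81.2%, beside 61.3% of all tested genes, with median SDs of 0.27 in knockout hearts and 0.12 in control hearts. Not all 16 genes followed this pattern. Knockout replicate 1 had the highest knockout value of Kcnd2, and in that heart Kcnq1 deviated by 0.05 and Kcng2 by 0.06. In knockout replicate 4 Kcnt2 and Kcnk6 each deviated by 0.16. Among members under 5.5, Kcnn2 was lowest in knockout replicate 3 and Kcna6 in knockout replicate 2.

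Some marker lists of cell types also differed between hearts. The mean deviation of 14 activated fibroblast markers was 1.04, 0.18, -0.37 and 0.99 in knockout replicates 1 to 4, against 0.44, -0.88, -0.83 and -0.56 in control replicates 1 to 4, and 14 of 14 were higher on average. Their summed linear signal ran from 6181.3 to 15289 in knockout hearts and from 4370.5 to 9972.2 in control hearts. The 16 ventricular markers had mean deviations of -0.23, 0.08, -0.01 and -0.19 in knockout hearts, against 0.05, 0.13, 0.09 and 0.09 in control hearts, and 13 of 16 were lower. Their summed linear signal ran from 47774 to 55488 in knockout hearts and from 54475 to 56971 in control hearts. The 10 tested atrial markers, with Bmp10 and Sbk3 below the filter, had a mean deviation of 1.21 in knockout replicate 2. It lay between -0.31 and -0.11 in the other knockout hearts and between -0.30 and 0.07 in control hearts. The summed linear signal of all 12 atrial markers ran from 10332 to 11865 in knockout hearts and from 9624.5 to 10358 in control hearts. Most of that sum was Nppa, a natriuretic peptide gene also induced in loaded ventricle, whose log2 signal was 13.27 to 13.34 in knockout hearts and 13.16 to 13.26 in control hearts. The part of these cell markers in the channel differences was not tested. Of lists for other cells, the endothelial markers were lower in 6 of 9 cases (median -0.02). Conduction system markers were higher in 4 of 6 (median 0.10), macrophage and lymphocyte markers in 8 of 9 (median 0.13) and neuron and Schwann cell markers in 3 of 4 (median 0.15). None of the genes in these lists passed limma's test (0 at an adjusted p of 0.05).

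**Figure D4:**
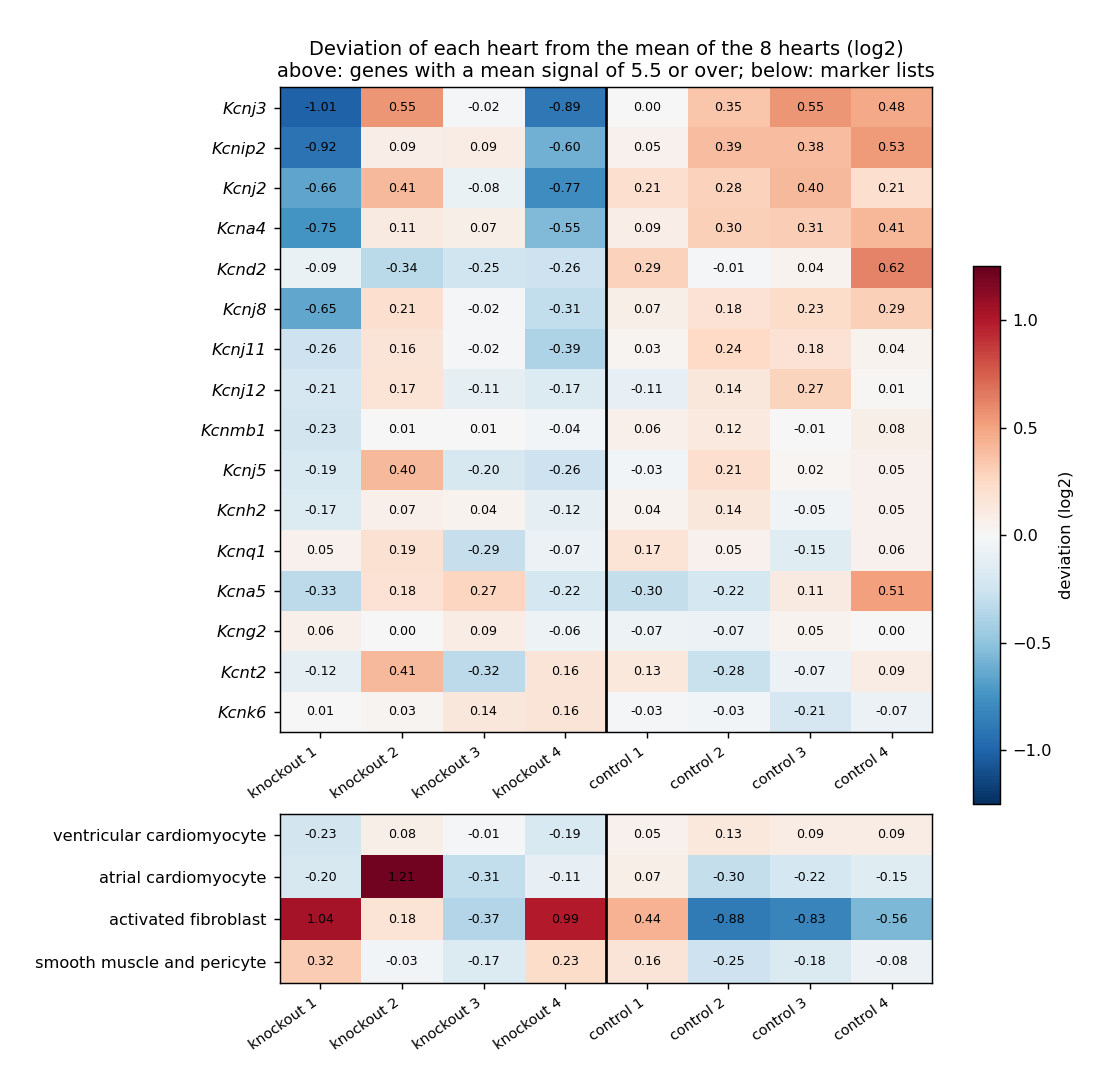
Deviation of each heart (columns, knockout left and control right of the line) from the mean of the 8 hearts, in log2 units, for the 16 members with a mean signal of 5.5 or over and for the mean of 4 marker lists. Blue is lower and red is higher. Knockout replicates 1 and 4 are low in most channel genes in the upper part and high in activated fibroblast markers, and knockout replicate 2 is high in atrial markers.

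Partners and regulators of potassium channels showed no common direction. Of 36 listed genes 30 were tested, 16 lower and 14 higher, with a median of -0.02, and 0 passed limma's test over all genes. At an unadjusted p under 0.05 in limma 1 of the 30 was lower and 2 were higher, beside 5.61% of all genes lower and 5.64% higher. The gene below control was Hcn2, a pacemaker channel gene also expressed in ventricle, with signals of 6.15, 5.93, 6.48 and 6.31 in knockout hearts, against 6.33, 6.52, 6.65 and 6.59 in control hearts and a difference of -0.31 ± 0.12 (SE). The genes above control were Flna, the actin cross-linker filamin A that can bind Kcnd2 channels, by 0.31 ± 0.12, and Gnai2, an inhibitory G protein alpha subunit, by 0.25 ± 0.10. Their adjusted p-values were 0.424, 0.421 and 0.435 in limma. The Kcnd2 partners Dpp6 and Dpp10 lay below the filter.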

How the data were processed

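The authors deposited log2 intensities of 41345 probe sets on 8 Affymetrix arrays. The submitters' processing notes name RMA (background correction, quantile normalization and probe summary) and limma, without versions, and the sources used here name no genome build. Quantile normalization would hide a shift common to all genes. RNA was taken from frozen hearts, per the labels' protocols.

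The platform annotation gave 1 symbol for 23521 probe sets and several for 1814, among them 4 that name a potassium channel gene (Kcnj13, Kcnk3 or Kcnmb4), which were not used. Symbols were set by Entrez identifier to RefSeq (88 of 88 genes matched). limma 3.58.1 in R 4.3.3 was fitted to all 15086 genes above the filter, knockout minus control, with Benjamini-Hochberg adjustment. Errors of differences are limma's moderated standard errors. For single genes an exact permutation test, two-sided, ran over all 70 assignments of hearts (smallest p 0.0286). No 2 arrays were duplicates (correlations 0.979 to 0.988). The fit was tested on simulated data.

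The genes, the channel classes, the marker and partner lists and the naming rule were chosen with earlier results of these data known. Named genes were the panel, the 5 per direction with the smallest p, those without overlap, those with a heart far from its group, those with the 3 highest signals and those with probe sets of opposite sign, with any past an adjusted p of 0.05. Of the partner list the 4 with the smallest p and the channel subunits Abcc8, Abcc9, Dpp6 and Dpp10 were named. Kcnd1, Kcnip3, Kcnj4, Kcnj9, Kcnj14 and Kcne4, named to complete a class, Klf15, and the markers Tnni3, Nppa, Sln and Myl7 were chosen after their values had been seen. Alternatives were other filters, quantile normalization, a common median, the mean of probe sets, a block for the replicate number, array weights, trend and robust estimation, no moderation, a threshold of 0.1 for the adjusted p, and leaving out hearts. Precision is limited by the number of arrays.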

Additional observations from a re-analysis of the deposited data

Results flagged for a closer look

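In 6 of 132 groups of 4 hearts 1 heart lay far from the other 3 by Dixon's test at the 95% level, where chance flags about 1 group in 20. They were spread over 6 genes, 3 in each genotype, and 3 were high and 3 low. Kcnj5, an atrial inward rectifier subunit, was 7.01 in knockout replicate 2, against 6.35 to 6.42 in the other knockout hearts. That heart had the high Sln and Myl7 signals given above, and the part of atrial tissue in this value was not tested. Kcnip1, a KChIP subunit, was 4.35 in knockout replicate 3, against 3.73 to 3.81 in the others, and its difference of 0.12 was -0.03 without that heart. Kcnab2, a Kv beta subunit, was 4.66 in knockout replicate 1, against 4.91 to 4.96 in the others. Among control hearts, Kcns3, a silent modifier, was 4.68 in replicate 1, against 4.97 to 5.02 in the others. In control replicate 4 Kcnk1 was 4.45, against 4.72 to 4.73 in the others, and Kcnk2 was 5.06, against 4.89 to 4.91 in the others.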

How the results depend on the processing

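No member passed limma's test under any of the 19 alternatives (0 of the tested members each, also at an adjusted p of 0.1). At an unadjusted p under 0.05 limma gave 7 lower and 2 higher members. It gave 12 lower without knockout replicate 2 and 4 lower without knockout replicate 4 or control replicate 2. No member was higher without knockout replicate 4 or control replicate 3 (0 each), and 1 was without control replicate 1 or control replicate 4. The unmoderated test gave 3 lower and 1 higher. The share of all genes at that unadjusted p was not counted under the alternatives. Changes in the member counts therefore cannot be read as particular to potassium channel genes. Over all alternatives the smallest adjusted p of a named gene was 0.16. With the replicate block it was 0.17 for Kcnd2, 0.165 for Kcnip2 and 0.212 for Kcnn2, and 10 members were lower and 1 higher at an unadjusted p under 0.05. Same-numbered hearts had correlations of their deviations of 0.359, 0.0087, 0.282 and -0.025, so the numbers were not taken as pairs; 2 of 4 knockout hearts correlated best with their own number. With the filter at the 60th percentile 30 members remained, 18 lower and 12 higher, with a median of -0.046, a transient outward median of -0.47 and a tandem-pore median of 0.12. With the mean of probe sets the transient outward median was -0.12. Knockout replicates 1 and 4 were also removed together, a choice made after seeing the data. Medians were then 0.053 for the Shaker, Shab and Shaw class, 0.014 for KCNQ and KCNE and -0.077 for ATP-sensitive genes. That of transport inward rectifier genes was -0.14, against 0.065 with all hearts, where 2 of 3 tested genes were higher. Under the same removal Kcna5 was at 0.20, Kcne1 at 0.20, Kcnh2 at 0.0092, Kcnj5 at 0.039 and Kcnab2 at 0.048, all turned from below 0. These hearts were removed because they were low in many members, so smaller differences of those members follow from the choice. Kcnn4 was at -0.0089 with quantile normalization and -0.0048 with a common median. When single hearts were left out, the Shaker, Shab and Shaw median ran from -0.055 to 0.044, Kcna5 from -0.16 to 0.11, Kcne1 from -0.16 to 0.093, Kcnk2 from -0.060 to 0.025, Kcnn4 from -0.079 to 0.083, Kcnab2 from -0.13 to 0.060, Kcnq1 from -0.13 to 0.025 and Kcnip1 from -0.029 to 0.18. The causes were not tested.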
